A study of Homo sapiens with 2 samples.

Results

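The genes of macroautophagy and of its selective cargo receptors were compared between 2 libraries of HGC-27 cells, a line from a human gastric adenocarcinoma. The set is a list of 38 gene symbols grouped by role, whose rule uses no measured value, and all 38 were found among the 63677 Ensembl genes of the count table. The control library came from a culture transfected with the empty plasmid pcDNA3.1, and the lncPSCA library from a culture given the plasmid with the long non-coding RNA lncPSCA. Both cultures were transfected with INTERFERin and harvested after 48 hours. RNA was sequenced from 1 library per group, so no test between the groups exists, and every interval below covers counting error and no spread between cultures. Reads are not independent molecules, and the intervals may be too narrow even for that.

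Macroautophagy encloses cytoplasm in a double membrane, the autophagosome, which then fuses with a lysosome. The ULK1 kinase complex starts the process, a class III phosphatidylinositol 3-kinase complex marks the membrane with the lipid PI3P, and ATG9 and ATG2 proteins supply lipid. Conjugation enzymes attach small ubiquitin-like proteins of the ATG8 family to the membrane, and receptors such as SQSTM1 (p62) bind both ATG8 proteins and cargo. In carcinoma cells the pathway is known for recycling nutrients and for clearing damaged organelles and protein aggregates, and it is restrained by mTORC1 and raised by the transcription factors TFEB and TFE3.

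Gene counts summed to 21552098 in control and to 23016646 in lncPSCA. As a check of the labels, PSCA had 22 reads in control and 28699 in lncPSCA, and JRK, which overlaps it on the opposite strand, had 729 and 7356. The lncRNA has no row under its own name. Of 10 epithelial or gastric markers 4 reached a mean of 1 CPM (reads scaled to libraries of 1000000). In control and lncPSCA these were CDX2 (163 and 140 reads), MUC1 (105 and 165), KRT8 (66 and 58) and CDH1 (26 and 20). Of the others, EPCAM had 7 reads in each library, KRT18 had 4 and 0, KRT19 had 1 and 0, and TFF1, TFF2 and GKN1 had none. The epithelial markers summed to 17.6 CPM in control and 16.6 CPM in lncPSCA, against 3754 and 3721 CPM for 6 mesenchymal markers (carried by VIM and COL1A1) and 5.74 and 6.81 CPM for 7 immune or endothelial markers. Of the 5 measured mesenchymal markers, FN1 (554 and 1448 reads, 2.35-fold, 2.12 to 2.59) and PDGFRB (59 and 137 reads, 2.08-fold, 1.52 to 2.88) were higher in lncPSCA by the size rule given below, and their part in the results was not tested.

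No autophagy gene differed by as much as 2-fold between the libraries. A gene counted as measured at a mean of at least 1 CPM, which 37 of the 38 genes reached, and MAP1LC3A, with 6 and 4 reads, did not. The size rule asked for a difference of at least 2-fold with the counting interval wholly beyond 1.5-fold: 0 of the 37 met it in either direction, while 3.02% of the 15440 measured genes were higher and 0.596% lower in lncPSCA by the same rule. With a relaxed limit of 1.5-fold and an interval beyond 1.2-fold, 3 members were higher (RB1CC1, ATG2B and TFEB), against 8.82% of measured genes, and 1 was lower (ATG16L1), against 4.59%. These shares lie near the background. Membership of this short list depended on the scaling and centring: RB1CC1 and ATG16L1 met the relaxed rule under all 6 alternatives tried, TFEB did not under upper-quartile scaling or centring along mean expression, and ATG2B did not under centring along transcript length. CALCOCO2 met it as higher with total counts and with centring along mean expression, and SQSTM1 as lower with upper-quartile scaling. Counting intervals lay wholly above 1 for 8 members and wholly below 1 for 17, where 27.0% and 32.1% of all measured genes did so, and 12 intervals included 1. Without ATG10, whose reads are considered below, 16 lay wholly below 1. Intervals are narrower for genes with more reads, and the median level was 42.1 CPM for the members against 21.9 CPM for all measured genes. These shares are therefore not on an equal basis. The median log2 ratio (lncPSCA over control) was -0.13 for the 37 genes and -0.02 for all measured genes, with 24 members below 0 and 13 above. Of all measured genes 8006 were below 0 and 7434 above. The quartiles of the members were -0.29 and 0.07, and those of all measured genes -0.26 and 0.28.

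**Figure D1:**
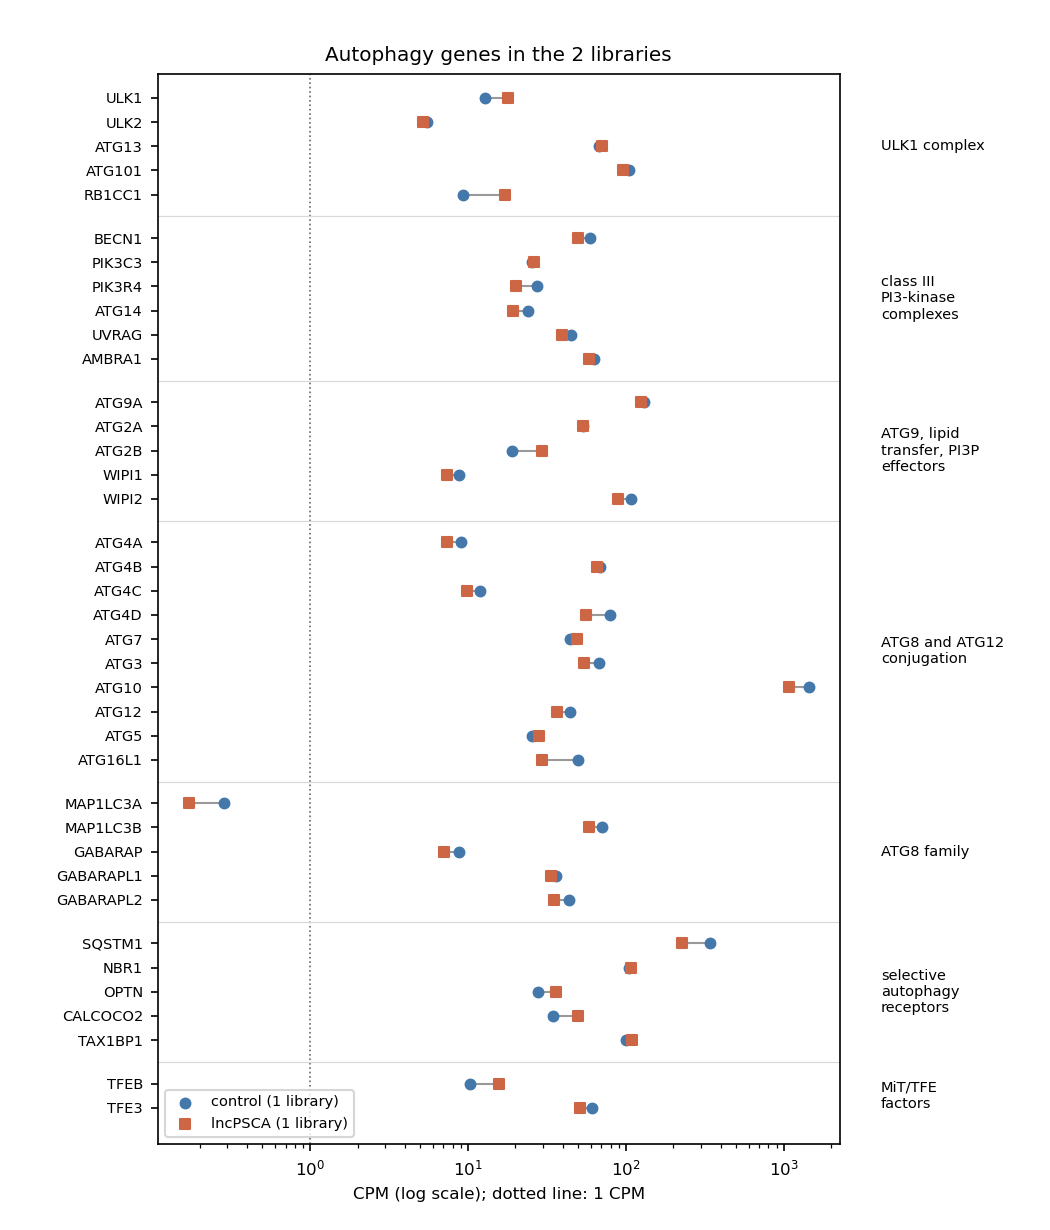
Level of each of the 38 genes in CPM (horizontal log axis) in the control library (circles) and the lncPSCA library (squares), grouped by role, with 1 library per group and a grey line joining the pair. The symbols lie close together for most genes, MAP1LC3A is below the dotted line at 1 CPM in both libraries, and ATG10 stands apart at 1445 and 1080 CPM.

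For 19 of the 38 genes an exon overlaps an exon of a gene on the opposite strand in GENCODE release 29, and whether counting used strand is not stated in the labels or notes used here. The clearest case is ATG10, which encodes the E2-like enzyme that joins ATG12 to ATG5. It had 30494 reads in control and 25391 in lncPSCA. The overlapping RPS23, a ribosomal protein gene, had 31791 and 26610 reads, and the ratio of the libraries was 0.747 (0.735 to 0.760) for ATG10 and 0.751 (0.739 to 0.764) for RPS23. Reads of the pair cannot be told apart here, so the ATG10 value is not used as a level of that gene. Without ATG10 the median log2 ratio of the members was -0.12. For 8 of the 19 genes, ATG10 among them, an overlapping gene had more control reads than the member itself. RB1CC1, TFEB, ATG16L1, ULK1 and CALCOCO2 have no such overlap in that annotation, while SQSTM1, OPTN and ATG2B do.

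Sequences upstream of the start are shown for the genes farthest from a ratio of 1 that were matched, ATG16L1 and ATG2B, and for NBR1, the single member with a match to one of the motifs searched. They are the 250 bases before the RefSeq start in GRCh38.p14, 5′ to 3′ along the gene, at chr2:233251423-233251672 (plus strand) for ATG16L1, chr14:96363342-96363591 (minus strand) for ATG2B and chr17:43170159-43170408 (plus strand) for NBR1. Capitals mark a motif match.
ATG16L1: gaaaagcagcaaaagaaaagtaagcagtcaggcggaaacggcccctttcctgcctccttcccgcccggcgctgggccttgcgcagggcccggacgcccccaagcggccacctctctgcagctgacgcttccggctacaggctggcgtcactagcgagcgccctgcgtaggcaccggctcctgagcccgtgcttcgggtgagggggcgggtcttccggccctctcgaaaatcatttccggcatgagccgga
ATG2B: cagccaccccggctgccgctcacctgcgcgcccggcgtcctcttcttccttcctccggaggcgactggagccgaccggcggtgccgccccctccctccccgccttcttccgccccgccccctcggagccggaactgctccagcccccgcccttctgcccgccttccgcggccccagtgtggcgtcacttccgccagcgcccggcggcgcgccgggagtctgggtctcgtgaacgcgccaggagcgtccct
NBR1: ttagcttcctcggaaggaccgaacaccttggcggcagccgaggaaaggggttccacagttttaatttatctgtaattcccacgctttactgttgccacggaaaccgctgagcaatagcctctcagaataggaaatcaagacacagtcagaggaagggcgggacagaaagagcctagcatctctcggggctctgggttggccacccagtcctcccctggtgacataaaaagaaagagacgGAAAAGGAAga

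RefSeq windows were matched for 34 of the 38 genes, some with several starts, and searched on both strands for 3 motifs. The core of the CLEAR element bound by TFEB and TFE3, TCACGTGA, was in none of the 34 genes' windows and in 1.04% of the 27305 genes with a window. The C/EBP-ATF element TGATGNAA was also in none of them, and in 3.89% of all genes. The core of the interferon-stimulated element, GAAANNGAA, was found for NBR1 alone among the members, and for 8.41% of all genes. The match lies at position -11 from the NBR1 start whose window is printed. The window of another NBR1 start, at chr17:43170964-43171213, had no match. The GC content of the printed windows was 66.4% for ATG16L1, 76.4% for ATG2B and 51.6% for NBR1. The matches describe letters in these windows and say nothing of binding.

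Within the ULK1 complex, the intervals of RB1CC1 and ULK1 lay above 1 and overlapped each other, that of ATG101 lay below 1, and those of ULK2 and ATG13 included it. RB1CC1 encodes FIP200, the large scaffold on which the ULK1 complex assembles. It had 196 reads (9.29 CPM) in control and 401 reads (17.1 CPM) in lncPSCA. Its fold of 1.84 (95% counting interval 1.54 to 2.19) was the highest among the 37 measured members, at the 94.7th percentile of all measured genes. ULK1, the serine/threonine kinase itself, had 272 and 422 reads, or 12.9 and 17.9 CPM, a fold of 1.39 (1.19 to 1.63). Its close relative ULK2 had 116 and 122 reads, a fold of 0.944 (0.726 to 1.23), which includes no difference. ATG13, the adaptor that links kinase and scaffold, was at 67.9 and 71.0 CPM. ATG101, which stabilises ATG13, was at 104.6 and 95.8 CPM. Per kilobase of the longest transcript, ATG101 was the most abundant of the 5 genes in both libraries (72.7 and 66.6 CPM per kilobase), and ULK2 (0.915 and 0.863) the least abundant, below RB1CC1 (1.4 and 2.57). ULK1 took 70.1% (exact binomial interval 65.3 to 74.6) of the reads of the 2 kinase genes in control and 77.6% (73.8 to 81.0) in lncPSCA, and these intervals overlap.

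Of the 6 class III PI3-kinase genes, 4 had intervals below 1, where 32.1% of all measured genes did, and the group median log2 ratio was -0.22. The median level of these 6 genes was 34.2 CPM against 21.9 CPM for all measured genes, so their intervals tend to be narrower. PIK3R4, the regulatory subunit VPS15, had 582 reads in control and 477 in lncPSCA, or 27.6 and 20.3 CPM. Its fold was 0.735 (0.650 to 0.832). The catalytic subunit gene PIK3C3 (VPS34) had 540 and 616 reads and a fold of 1.024 (0.911 to 1.15), an interval that does not overlap that of PIK3R4. Centred along transcript length, the log2 ratio of PIK3C3 went from 0.03 to -0.21 and that of PIK3R4 from -0.44 to -0.49. The difference between these subunits thus depends in part on the centring. BECN1, the Beclin 1 scaffold, was the most abundant of the 6 genes per kilobase in control (12.2 CPM per kilobase) and its fold was 0.845 (0.780 to 0.916), from 59.3 to 50.2 CPM. PSME3, which overlaps BECN1 on the opposite strand, had 7380 and 6097 reads, a fold of 0.741. Its part in the BECN1 value was not tested. ATG14 and UVRAG direct the kinase to autophagosome formation and to endosomes, respectively. ATG14 had 507 and 455 reads, a fold of 0.805 (0.708 to 0.916). UVRAG had 955 and 932 reads, a fold of 0.876 (0.799 to 0.960). AMBRA1, which tethers Beclin 1 to its regulators, had 1330 and 1375 reads and a fold of 0.928 (0.860 to 1.001). AMBRA1 and PIK3C3 had intervals that include 1, and the other 4 genes had intervals below it.

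Among the lipid supply genes, the ATG2 paralogs had unlike ratios. ATG2B, which bridges membranes and transfers lipid, had 402 reads in control and 689 in lncPSCA, or 19.1 and 29.3 CPM, a fold of 1.54 (1.36 to 1.74). ATG2A, which has the same activity, had 1122 and 1255 reads, with a fold of 1.004 (0.925 to 1.09). That log2 ratio, 0.01, changed sign under upper-quartile scaling and after centring along transcript length. As a share of the reads of both genes, ATG2B went from 26.4% (24.2 to 28.7) to 35.4% (33.3 to 37.6), intervals that do not overlap. This share does not depend on the scaling of the libraries, but it uses the same reads as the 2 folds and is no separate support. Centred along transcript length, however, the log2 ratio of ATG2B went from 0.62 to 0.28, below the relaxed limit, and that of ATG2A to -0.12. ATG9A, the lipid scramblase of ATG9 vesicles, was the most abundant of the group per kilobase, with 2753 and 2927 reads and a fold of 0.954 (0.906 to 1.006). WIPI1 and WIPI2 are PI3P-binding proteins, and WIPI2 recruits the conjugation machinery. WIPI2 had 2270 and 2094 reads, a fold of 0.828 (0.780 to 0.879). WIPI1 had 184 and 174 reads, a fold of 0.849 (0.686 to 1.05). ARSG, which overlaps WIPI1 on the opposite strand, had 240 and 232 reads, a fold of 0.87, and its part in the WIPI1 value was not tested. WIPI2 supplied 83.9% and 83.5% of the reads per kilobase of WIPI1 and WIPI2.

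The conjugation enzymes held the lowest ratio of the set. ATG16L1, which places the ATG12-ATG5 conjugate on the membrane and so sets where ATG8 proteins are attached, had 1047 reads in control and 695 in lncPSCA, or 49.6 and 29.6 CPM. The fold was 0.596 (0.541 to 0.656), at the 2.66th percentile of measured genes. Its partners did not share this ratio: ATG5 had 541 and 662 reads, a fold of 1.10 (0.979 to 1.23), and ATG12, the ubiquitin-like partner of ATG5, had 935 and 861, a fold of 0.826 (0.753 to 0.908). Of the reads of these 3 genes, ATG16L1 took 41.5% (39.6 to 43.4) in control and 31.3% (29.4 to 33.3) in lncPSCA. ATG7, the E1-like enzyme that activates both ubiquitin-like systems, had 940 and 1160 reads, a fold of 1.11 (1.01 to 1.21), and VGLL4, which overlaps it on the opposite strand, one of 1.36. ATG3, the E2-like enzyme for ATG8 proteins, had 1426 and 1284 reads, a fold of 0.808 (0.749 to 0.872).

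The ATG4 cysteine proteases prime ATG8 proteins and release them from membranes. ATG4D had 1675 reads in control and 1316 in lncPSCA, or 79.4 and 56.0 CPM, a fold of 0.705 (0.656 to 0.758). The overlapping KRI1 had more reads (2819 and 2546) and a fold of 0.810, and its part in the ATG4D value was not tested. The log2 ratio of ATG4D went from -0.50 to -0.40 under either centring. ATG4B, the main ATG8 protease in most cells, had 1454 and 1541 reads and a fold of 0.951 (0.885 to 1.023). ATG4A (190 and 173 reads) and ATG4C (251 and 233 reads) were lower in level in both libraries, with folds of 0.817 and 0.833. ATG4D made up 46.9% (45.3 to 48.6) of the reads of the 4 proteases in control and 40.3% (38.6 to 42.0) in lncPSCA. In the whole conjugation group, 8 of 10 log2 ratios were below 0, and the median was -0.28. Of 15440 measured genes, 8006 were below 0. The 8 include ATG10, whose value is not used as a level of that gene. AP3S1 and THAP4 overlap ATG12 and ATG4B on the opposite strand, with more control reads than these members and folds of 0.80 and 0.84. Their part in the ATG12 and ATG4B values was not tested.

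**Figure D2:**
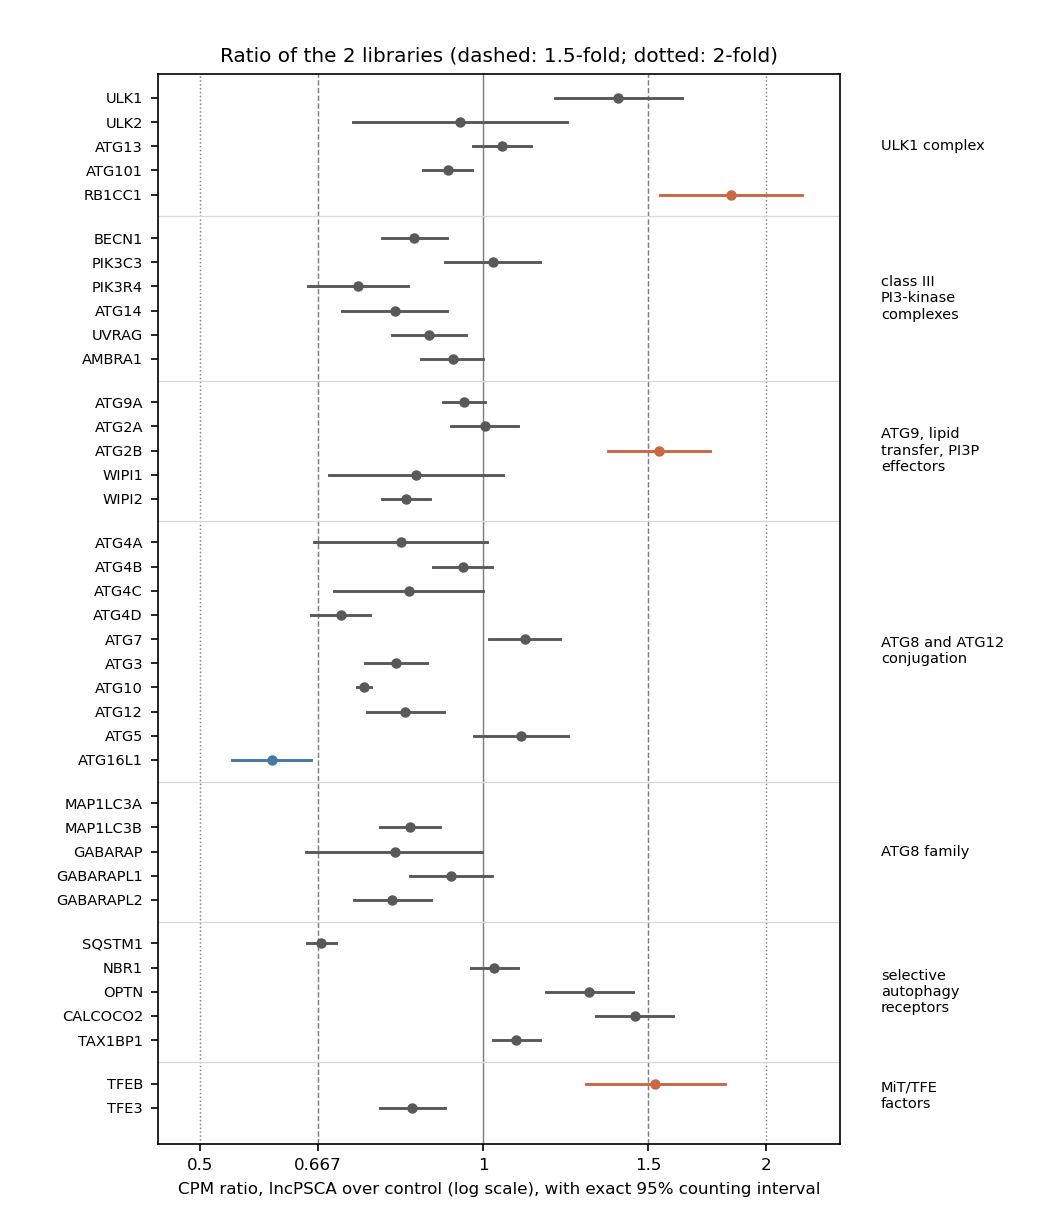
Ratio of CPM, lncPSCA over control (horizontal log axis), for the 37 measured genes with exact 95% counting intervals as bars, where dashed lines mark 1.5-fold and dotted lines 2-fold in either direction. RB1CC1, ATG2B and TFEB (orange) and ATG16L1 (blue) meet the relaxed rule, no point passes a dotted line although the bar of RB1CC1 reaches 2.19, and MAP1LC3A has no point because it was not measured.

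The 4 measured ATG8 genes had log2 ratios within a narrow range, from -0.32 to -0.11. MAP1LC3B, whose lipidated protein is the usual marker of autophagosomes, had 1487 reads in control and 1384 in lncPSCA, or 70.5 and 58.9 CPM. Its fold was 0.835 (0.776 to 0.899). GABARAPL2 had 925 and 825 reads, a fold of 0.80 (0.728 to 0.880), and GABARAPL1 had 766 and 789, a fold of 0.924 (0.836 to 1.022). GABARAP, a member of the same branch, had 184 and 165 reads, a fold of 0.805 (0.648 to 0.998). Annotated genes on the same strand and on the opposite strand overlap GABARAP, and whether reads were set aside there was not tested. Per kilobase, MAP1LC3B made up 38.8% and 38.7% of the family, GABARAPL2 32.7% and 31.3%, GABARAPL1 19.2% and 21.2%, and GABARAP 9.05% and 8.70%. The make-up of the family was thus nearly the same in both libraries. Measured by union exon length in place of the longest transcript, GABARAPL2 led MAP1LC3B (35.6% against 32.7% in control), so the order of these genes depends on the length used. MAP1LC3A stood at 0.284 and 0.170 CPM, MAP1LC3B2 had 0 and 1 reads, and MAP1LC3C had none. A count of 0 allows up to 3 counts, which is 0.142 CPM in control and 0.128 CPM in lncPSCA.

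Among the cargo receptors, the interval of SQSTM1 lay below 1, those of CALCOCO2, OPTN and TAX1BP1 above 1, and that of NBR1 included 1. SQSTM1 binds ubiquitinated cargo and the ATG8 proteins and also holds the NRF2 inhibitor KEAP1. It had 7160 reads in control and 5364 in lncPSCA, or 339 and 228 CPM. The fold was 0.672 (0.649 to 0.697), at the 6.13th percentile of measured genes and just short of the 1.5-fold limit. Its log2 ratio of -0.57 became -0.51 with total counts, -0.52 centred along length and -0.43 centred along mean expression, all farther from that limit. With upper-quartile scaling it was -0.60, beyond the limit. CALCOCO2, known as NDP52, recognises bacteria and damaged mitochondria. It had 725 reads in control and 1171 in lncPSCA, or 34.4 and 49.8 CPM, a fold of 1.45 (1.32 to 1.59), again just short of that limit. OPTN, optineurin, which acts in mitophagy downstream of TBK1, had 585 and 846 reads, a fold of 1.30 (1.17 to 1.45). CCDC3, which overlaps OPTN on the opposite strand, had 908 and 961 reads, a fold of 0.95. Its part in the OPTN value was not tested. TAX1BP1, a relative of CALCOCO2, had 2129 and 2573 reads, a fold of 1.08 (1.024 to 1.15). NBR1, which clusters aggregates together with SQSTM1, had 2211 and 2532 reads, a fold of 1.03 (0.970 to 1.09). The median log2 ratio of the 4 receptors other than SQSTM1 was 0.25; this grouping was chosen after the values were seen.

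Within the libraries, SQSTM1 took 55.9% (55.0 to 56.8) of all reads of the 5 receptor genes in control and 43.0% (42.1 to 43.8) in lncPSCA. The share of CALCOCO2 went from 5.66% (5.27 to 6.07) to 9.38% (8.87 to 9.90). Neither pair of intervals overlaps, and neither share depends on the scaling between libraries, but both use the same reads as the folds. Both shares are parts of the same total, so they are not independent of each other, and the intervals cover counting error only. Per kilobase SQSTM1 remained the most abundant receptor, with 63.7% of the family in control and 50.8% in lncPSCA. MRNIP and MGAT4B overlap SQSTM1 on the opposite strand and had folds of 0.712 and 0.847. Their part in the SQSTM1 value was not tested.

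**Figure D3:**
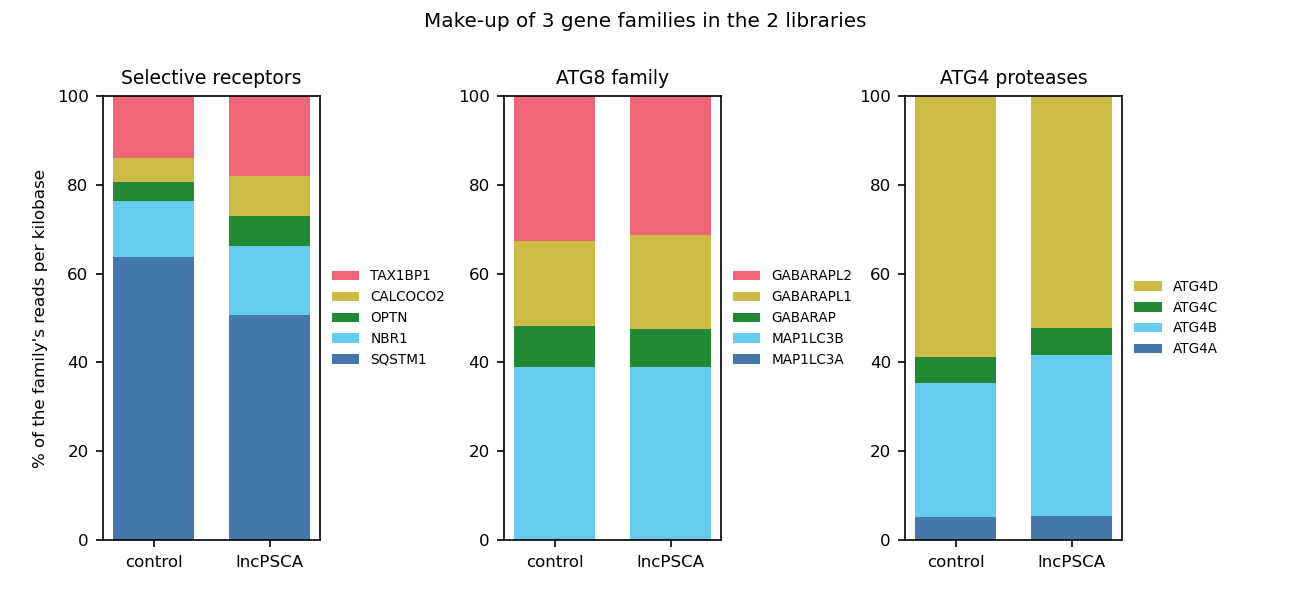
Share of each gene in its family's reads per kilobase of longest transcript (vertical axis, %), as stacked bars for the control and lncPSCA libraries, 1 library each. SQSTM1 takes 63.7% of the receptors in control and 50.8% in lncPSCA and ATG4D 58.8% and 52.3% of the ATG4 proteases, while MAP1LC3B stays at 38.8% and 38.7% of the ATG8 family, in which MAP1LC3A is too low to be seen.

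The pair of transcription factors that drive lysosomal and autophagy genes had opposite ratios. TFEB had 219 reads in control and 372 in lncPSCA, or 10.4 and 15.8 CPM, a fold of 1.52 (1.29 to 1.81). TFE3 had 1288 and 1207 reads, or 61.0 and 51.3 CPM, a fold of 0.841 (0.777 to 0.910). TFEB went from 14.5% (12.8 to 16.4) to 23.6% (21.5 to 25.7) of the reads of both genes, without overlap of the intervals. TFE3 was the more abundant of the pair in both libraries, at 17.9 and 15.03 CPM per kilobase against 4.0 and 6.10 for TFEB. These factors are controlled largely by phosphorylation and location, which RNA counts do not show. Of 27 lysosomal genes, many of them known targets, 26 were measured and none met the size rule in either direction. By that rule 3.02% of all measured genes were higher and 0.596% lower, so a count of 0 among 26 is near the background. The median log2 ratio of the 26 was -0.09, with 9 above 0 and 17 below. For all measured genes it was -0.02, with 7434 above 0 and 8006 below. A link between the TFEB and lysosomal values was not tested. PSAP, the saposin precursor, was at 768.5 and 763 CPM, and ATP6AP1, a proton pump accessory subunit, at 186 and 163 CPM. Only ATP6V0E1, a subunit of the proton pump, met the relaxed rule among the lysosomal genes, as lower at 0.623-fold (0.592 to 0.655). By that rule 8.82% of all measured genes were higher and 4.59% lower.

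The log2 ratio of the members also moved with transcript length. Across the 37 genes its Spearman correlation with the longest transcript was 0.42, and across the 14993 measured genes with a length it was 0.24; all points come from the same pair of libraries. The 12 members with the shortest transcripts (1439 to 3085 bases) had a median of -0.30, with 1 above 0. The 13 in the middle had a median of -0.07, and the 12 longest (4656 to 13684 bases) one of 0.02, with 7 above 0. ATG2B, whose centred value is given above, has the longest transcript of the set at 13684 bases. RB1CC1, at 6635 bases, went from 0.87 to 0.74 once the trend with length over all genes was taken off. ATG16L1 stayed at -0.75, TFEB went from 0.61 to 0.68 and CALCOCO2 from 0.54 to 0.56. The part of length in the members' ratios beyond this centring was not tested.

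**Figure D4:**
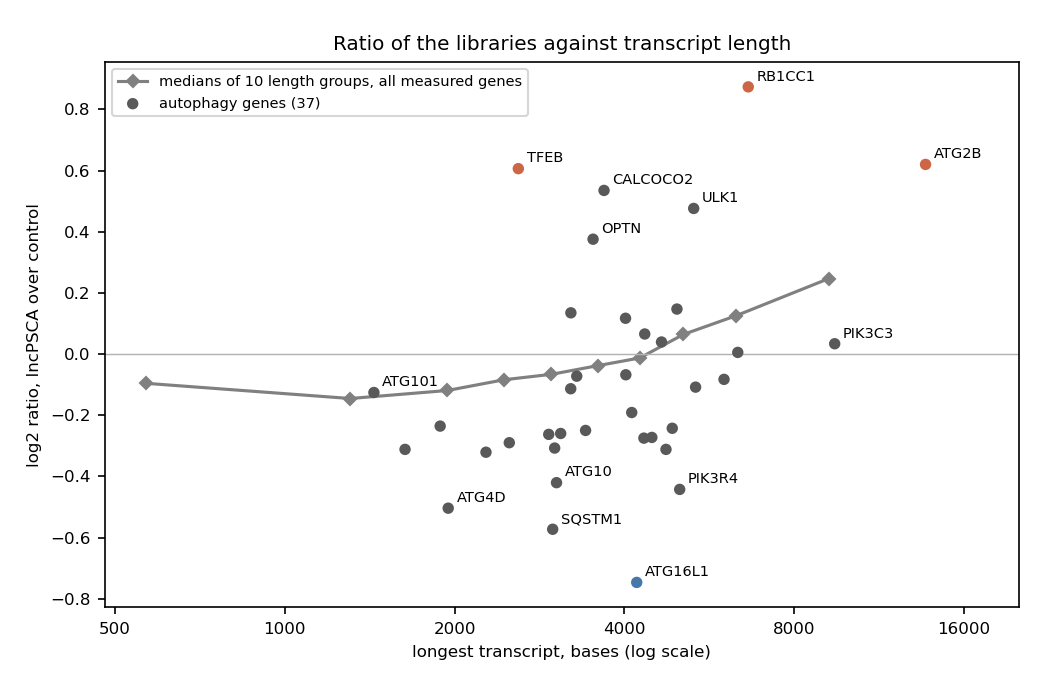
Log2 ratio, lncPSCA over control (vertical axis), against the length of the longest transcript in bases (horizontal log axis) for the 37 measured autophagy genes (circles; orange where the relaxed rule is met as higher, blue as lower), with the medians of 10 length groups of all measured genes joined by a grey line. The line runs from -0.10 in the shortest group to 0.25 in the longest, ATG2B is the longest gene plotted, and TFEB and ATG16L1 lie far from the line on opposite sides.

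Other genes of the pathway were looked at through 5 lists of 103 genes, of which 93 were measured, 2 met the size rule as higher and none as lower, against 3.02% and 0.596% of all measured genes. By the relaxed rule 5 were higher and 5 lower, where 8.82% and 4.59% of all measured genes were. Both genes that met the size rule belong to the list of mTORC1 and AMPK control, where 25 of 27 measured genes met that rule in neither direction. DDIT4 (REDD1), which restrains mTORC1 through TSC2, had 5331 reads in control and 34528 in lncPSCA, a fold of 5.81 (5.65 to 5.98). SESN2, a sestrin that inhibits mTORC1 when leucine is short, had 740 and 2893 reads, a fold of 3.51 (3.24 to 3.81). The kinase genes MTOR (1.03-fold) and PRKAA1 (0.895-fold) were among those that met the size rule in neither direction. By the relaxed rule SESN3 was higher at 1.89-fold (1.67 to 2.15), and RHEB, the GTPase that activates mTORC1, and RRAGC, a Rag GTPase, were lower at 0.644-fold (0.612 to 0.678) and 0.651-fold (0.585 to 0.725). Genes outside the 38 that are named by the relaxed rule, and MTOR, PRKAA1, VAMP8, TBK1, MAP1LC3B2 and MAP1LC3C, were chosen after their values were seen.

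The remaining lists held no gene that met the size rule. Among 11 measured genes of autophagosome-lysosome fusion, YKT6, a SNARE, was at 358 and 282 CPM and the small GTPase RAB7A at 205 and 172 CPM. STX17, the SNARE on the completed autophagosome, had 298 reads in control and 631 in lncPSCA. Its fold of 1.90 (1.65 to 2.19) met the relaxed rule, and VPS33A, a subunit of the HOPS tethering complex, was lower by that rule at 0.664-fold (0.542 to 0.813). VAMP8, the partner SNARE on the lysosome, had only 5 and 20 reads and was not measured. Of 16 measured genes among other receptors and mitophagy or ER-phagy genes, PHB2 was at 518 and 459.5 CPM and FKBP8 at 457 and 479 CPM. WDFY3 (ALFY), a large scaffold for aggregate clearance, was higher by the relaxed rule at 1.52-fold (1.39 to 1.66), and its log2 ratio of 0.60 became 0.26 after centring along length. FUNDC1, a mitochondrial receptor, was lower by that rule at 0.642-fold (0.529 to 0.778). TBK1, the kinase that phosphorylates OPTN, had 276 and 267 reads. Of 13 measured other core genes none met either rule, and EI24 (219 and 151 CPM) and the PI3P-binding gene WDR45B (107 and 89.7 CPM) were the most abundant.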

How the data were processed

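The authors deposited 1 table of raw read counts per Ensembl gene; per the submitters' processing notes, TopHat2, HTSeq and hg19 were used. Annotation, strand setting and treatment of multiply mapped reads: not given in the sources used here. Symbols were matched for 52181 of 63677 identifiers. Libraries were scaled by TMM (edgeR 4.0.16), and CPM were computed from the scaled sizes. The log2 ratio used a pseudocount of 1; folds are ratios of CPM without it, with exact Clopper-Pearson intervals at 95% on each gene's reads. Size and relaxed rules are as the report gives them, and the steps were tested on simulated data. Lengths and overlaps came from GENCODE release 29 (GRCh38), matched by identifier, so no coordinates of the count table's build are given. Other settings tried were upper-quartile and total-count scaling, DESeq2 1.42.0 size factors, other CPM minimums and pseudocounts, an assumed coefficient of variation, and lowess centring (statsmodels 0.14.6, fraction 0.3) along mean expression or length. The members and lists were chosen with earlier results of these data known. All members are named and, of each other pathway list, the genes meeting the size rule or the most abundant pair. Marker genes and others outside that rule were named after their values were seen. Read shares within gene groups were not planned beforehand and use the same reads as the folds, so they are no separate support. Protein sequences were not used here.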

Additional observations from a re-analysis of the deposited data

How the results depend on the processing

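No paired analysis was possible because each group has 1 library. The count of members meeting the size rule was 0 in both directions under every scaling, pseudocount and centring tried and with no CPM minimum. It was also 0 with a higher CPM minimum and with biological variation (coefficient 0.2) assumed on top of counting error. The same held without the 19 members that overlap a gene on the opposite strand, and without ATG10 (an alternative chosen after seeing the data). A higher minimum, wider intervals, fewer members or a larger pseudocount could not raise a count of 0, so these settings do not test it. Dropping the minimum added only MAP1LC3A, whose 6 and 4 reads could not meet the rule, so that setting does not test it either. With upper-quartile scaling, 2 members met the relaxed rule as lower, and the number higher was 2 to 4 over the 6 alternatives of scaling, pseudocount and centring tried for that rule (also chosen after seeing the data). With the limits loosened to 1.5-fold and 1.2-fold it was 3 higher and 1 lower, by construction of the looser limits. The median log2 ratio of the members was -0.06 with total counts, -0.11 with DESeq2 size factors, -0.15 with the upper quartile, -0.16 with no CPM minimum, -0.13 centred along mean expression, -0.19 centred along length and -0.10 without the overlapping members. Of 37 members 32 kept the sign of their log2 ratio under the scalings, the pseudocount of 5 and both centrings. ATG101, PIK3C3, ATG9A, ATG2A and ATG4B changed sign under at least 1 centring, and ATG2A also under upper-quartile scaling. Of 222 single-gene values under these alternatives, 17 lay outside the gene's counting interval. Genes with few reads have the widest intervals (ULK2, with 116 and 122 reads, 0.726 to 1.23), and the spread between cultures was not measured for any gene.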
